A study of Mus musculus with 6 samples.

Results

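This account describes 43 genes of the NRF2 pathway and the antioxidant systems of the cell in mouse melanoma tumors treated with Rigosertib (RGS). RGS is a small molecule, given orally here, that the study describes as a RAS mimetic. Per the study, it is disputed whether the microtubule effects of RGS preparations come from RGS or from a contaminant. The members were chosen by gene symbol from a count table of 40166 genes, and all 43 were found in it. The table holds bulk RNA sequencing of 6 subcutaneous YUMM3.3 tumors, 3 from mice given water (vehicle, replicates 7, 8 and 9) and 3 from mice given RGS at 300 mg/kg (replicates 10, 11 and 12), collected at day 17 of treatment. YUMM3.3 is a mouse melanoma cell line driven by mutant BRAF, and it was grown in C57BL/6 mice of 8 to 10 weeks of age, per the study's methods, that were dosed by gavage on 5 days a week. All tumors came from the same cell line, and no source used here says that each came from a different mouse, so p-values measure the spread between these samples.

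NRF2, the protein made from Nfe2l2, is a transcription factor that is held in the cytoplasm by KEAP1 and passed to a CUL3 ubiquitin ligase for destruction. When oxidants or electrophiles modify KEAP1, NRF2 escapes, pairs with small MAF proteins at antioxidant response elements and raises genes for quinone reduction, glutathione synthesis, thioredoxin recycling and NADPH supply. Much of this control acts on the NRF2 protein, which these libraries did not measure. Glutathione and thioredoxin pass electrons from NADPH to peroxides, and the pentose phosphate pathway is a main source of that NADPH. In melanoma these systems are known for buffering the oxidants made during pigment synthesis and rapid growth.

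RGS tumors had higher RNA of 16 of these genes. Among them were sulfiredoxin, peroxiredoxins 1 and 5, the quinone reductase Nqo1, glutathione synthetase and glutathione reductase. Also higher were the extracellular and cytosolic superoxide dismutases, the glutathione S-transferase Gsta4 and all 4 pentose phosphate enzymes among the members. Txnip, the thioredoxin-binding inhibitor, went the other way with a 15.7-fold lower level. Nfe2l2, Keap1, Hmox1, Gclc and Me1 did not pass the test. Of the 43 members, 39 had a median count of at least 5 in 1 or both groups and were tested with edgeR's quasi-likelihood test, two-sided, with Benjamini-Hochberg adjustment over 15355 genes. At an adjusted p under 0.05, 16 members were higher in RGS, where 16.3% of all tested genes were, and 4 were lower, where 16.5% were. The other 19 tested members did not pass. Counting both directions, 32.8% of all tested genes passed, and 49.7% of those calls were higher (37.2% under scaling by library size alone). The median log2 fold change was 0.38 over the tested members and -0.05 over all tested genes. The 3 RGS values lay outside the range of the 3 vehicle values for 26 members, against 45.8% of all tested genes. RGS was above vehicle in 19 of these members (21.7% of all genes) and below it in 7 (24.0%). With a log2 fold change of at least 1 in size as well, 11 members were higher (7.61% of all genes) and 2 were lower (9.44%). The count of lower members rose to 8 without vehicle replicate 7, when Prdx2, Prdx3, Gpx1 and Gpx8 also passed (adjusted p = 0.000149, 0.0444, 0.00442 and 0.0281).

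**Figure D1:**
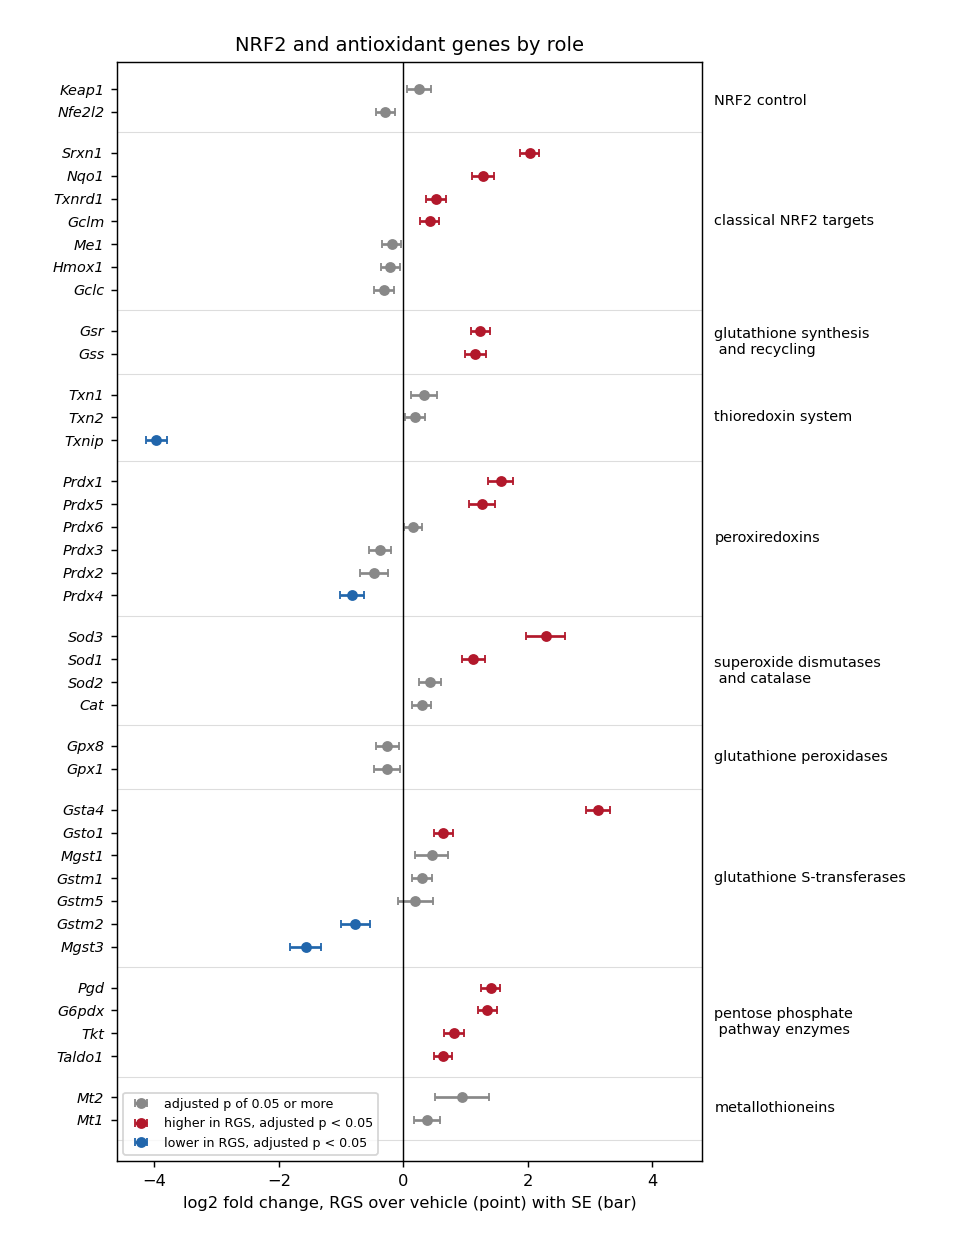
Log2 fold change of RGS over vehicle for the 39 tested members, grouped by role, with points for the edgeR estimate, bars for its SE and color for the call (3 tumors per group). The 4 pentose phosphate enzymes, Gss and Gsr lie to the right of 0, Txnip lies farthest to the left at -3.97, and Nfe2l2 and Keap1 lie near 0.

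The libraries held 22793087 to 32555494 counts in the vehicle group and 13837932 to 21617368 in the RGS group, so that every vehicle library was deeper. Cytosolic ribosomal protein genes took 5.16% to 9.41% of counts in vehicle and 2.85% to 3.35% in RGS, and genes of the mitochondrial genome took 2.13% to 3.20% and 5.60% to 8.22%. The members together took 0.831% to 0.915% of counts in vehicle and 1.17% to 1.23% in RGS. The labelled cell type could not be read from its markers, since Dct, Tyr and Mlana had no count in any library, Sox10 had counts in 1 library and Mitf had 74 to 261. Single zeros in this table are hard to read, because the broadly expressed Ppp1ca had at most 1 count in any library. Of 9 lists of cell type markers, fibroblast markers summed to 404 to 601 CPM (TMM-scaled read counts relative to library size) in vehicle and 294 to 321 in RGS, with 1 of 8 at 0 throughout. The fibroblast list went both ways, since Pdgfra, Pdgfrb, Col1a2 and Col3a1 were lower in RGS (log2 fold changes -2.20 to -0.70), Dcn was higher (3.24, from 0.571 to 1.46 CPM in vehicle to 6.55 to 15.7 CPM in RGS), and Dpt and Col1a1 did not pass. Macrophage markers summed to 58.9 to 64.7 CPM in vehicle and 65.4 to 88.3 in RGS, nearly all of it Cd68, with Adgre1, C1qc and Fcgr1 at 0. Endothelial markers summed to 2.49 to 4.10 and 6.55 to 13.8 CPM, and keratinocyte markers to 0.400 to 1.72 and 6.77 to 22.8 CPM, led by Ivl in RGS. Among the tested endothelial markers only Cdh5 passed (higher, adjusted p = 0.000637), while Pecam1, Tek and Vwf did not. Among the tested keratinocyte markers only Ivl passed, and Krt10 did not. Krt5, Krt14, Krt1, Krt6a and Trp63 had at most 2 counts in any library. T and NK cell markers came to at most 1.42 CPM and neutrophil markers to at most 0.673 CPM in every tumor, and the hemoglobin genes had no count. Trac, the only tested T and NK marker, had 0, 0 and 0 counts in vehicle and 30, 16 and 10 in RGS. It passed as higher (adjusted p = 0.00592), without overlap. Alas2 of the erythroid list had 0, 0 and 0 counts in vehicle and 15, 0 and 12 in RGS (adjusted p = 0.0330), with overlapping groups. Adipocyte and skeletal muscle markers summed to 3.45 to 7.70 CPM in vehicle and 2.64 to 7.22 in RGS. Exact permutation tests of these sums, two-sided, could not go below p = 0.1 with 3 tumors against 3, which was the value for the fibroblast, macrophage, endothelial, keratinocyte and T and NK lists. The part of these shifts in the results below was not tested, and in bulk tumors fewer cells of a type and less RNA per cell cannot be told apart.

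Nfe2l2 itself (chr2:75675513-75704641, GRCm38, as for all positions here) stood at 399, 374 and 311 CPM in the vehicle tumors and 323, 272 and 291 CPM in the RGS tumors. The groups overlapped, and the difference did not pass the test (log2 fold change -0.29, SE 0.15, adjusted p = 0.157, 95% interval -0.61 to 0.03). Nfe2l2 did pass, as lower in RGS, under scaling by library size alone (log2 fold change -0.43, adjusted p = 0.0467) and with limma voom and quality weights (-0.32, adjusted p = 0.0225). Keap1 (chr9:21229730-21239361), the sensor that binds NRF2, stood at 33.4, 40.3 and 37.02 CPM in vehicle and 40.2, 52.96 and 38.97 CPM in RGS. RGS replicate 11 was above the rest and the other two lay within the vehicle range (log2 fold change 0.25, SE 0.19, adjusted p = 0.336, interval -0.15 to 0.65). The interval of Nfe2l2 leaves out a rise above 0.03 on the log2 scale, and that of Keap1 leaves out a fall beyond -0.15. Of the Keap1 exon bases, 10.9% overlap the antisense gene Gm16754, which had 16 to 121 counts per library.

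The classical targets split. Srxn1 (chr2:152105516-152111376), which encodes sulfiredoxin and repairs overoxidised peroxiredoxins, stood at 197, 191 and 169 CPM in vehicle and 787, 754 and 739 CPM in RGS. All RGS tumors were above all vehicle tumors by a wide margin, a 4.09-fold difference with little spread within either group (log2 fold change 2.03, SE 0.15, adjusted p = 1.07e-08). Nqo1 (chr8:107388225-107403206), the NADPH-dependent quinone reductase and a standard readout of NRF2, stood at 177, 262 and 307 CPM in vehicle and 582, 587 and 648 CPM in RGS. The vehicle tumors spread over a wider range than the RGS tumors, and the groups did not overlap (log2 fold change 1.28, SE 0.18, adjusted p = 2.57e-05).

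Smaller rises were seen in Txnrd1 and Gclm. Txnrd1, the cytosolic thioredoxin reductase, stood at 865, 752 and 644 CPM in vehicle and 1284, 1012 and 969 CPM in RGS (log2 fold change 0.53, SE 0.16, adjusted p = 0.0175). The call was lost without vehicle replicate 9 (adjusted p = 0.0504), without RGS replicate 10 (adjusted p = 0.104) and under scaling by library size alone (adjusted p = 0.0859). Gclm, the modifier subunit of glutamate-cysteine ligase, which makes the first bond of glutathione, stood at 247, 216 and 217 CPM in vehicle and 272, 312 and 329 CPM in RGS (log2 fold change 0.43, SE 0.15, adjusted p = 0.0361). Its call was lost without vehicle replicate 8 or 9 or RGS replicate 11 or 12 (adjusted p = 0.142, 0.0911, 0.131 and 0.152) and under scaling by library size alone (adjusted p = 0.174).

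The other classical targets did not pass. Gclc, the catalytic partner of Gclm, stood at 161, 131 and 136 CPM in vehicle and 109.5, 135 and 102 CPM in RGS, with overlapping groups (log2 fold change -0.30, SE 0.16, adjusted p = 0.162, interval -0.65 to 0.04). Hmox1, the heme-degrading enzyme, stood at 233, 230.5 and 231 CPM in vehicle and 178, 215 and 208 CPM in RGS. The RGS tumors were all below the vehicle tumors, which were almost equal, but the difference did not pass the test (log2 fold change -0.21, SE 0.15, adjusted p = 0.305, interval -0.52 to 0.10). Me1, the cytosolic NADP-dependent malic enzyme, stood at 92.9, 91.6 and 99.7 CPM in vehicle and 76.6, 88.9 and 84.4 CPM in RGS (log2 fold change -0.19, SE 0.16, adjusted p = 0.393), and 16.42% of the 75-base windows along its exons also occur in other genes. For Hmox1 and Me1 the intervals end at 0.10 and 0.14, so that rises of the size seen in Srxn1 or Nqo1 lie outside them.

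**Figure D2:**
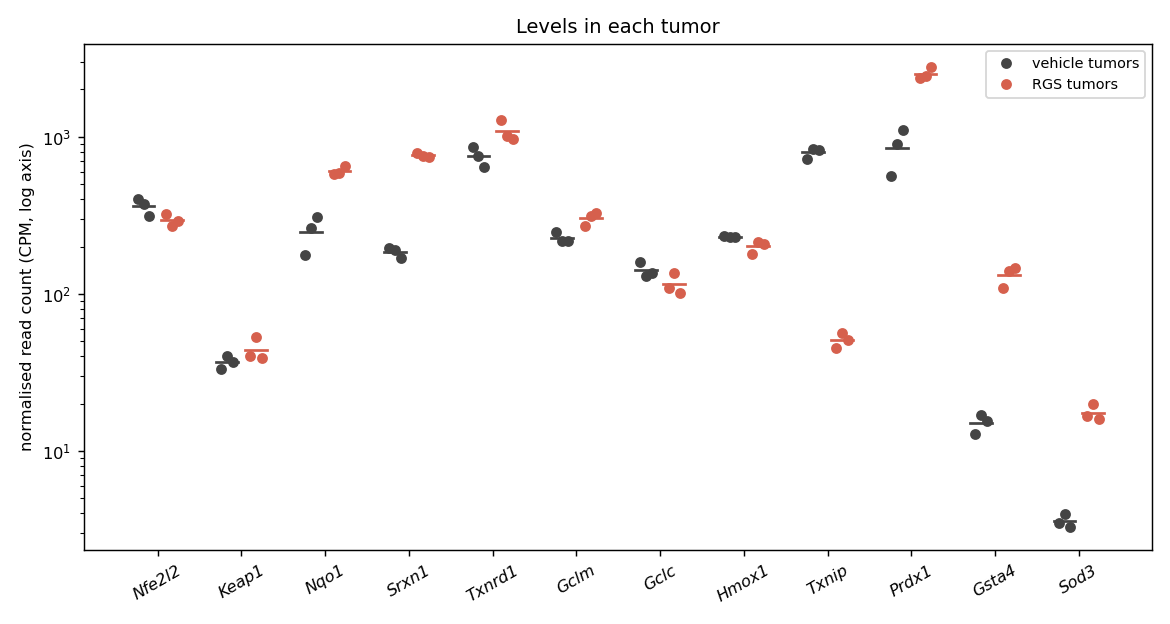
Normalised read count (CPM, log axis) of 12 members in each of the 3 vehicle and 3 RGS tumors, with points for tumors and lines for group means. Srxn1, Nqo1, Prdx1, Gsta4 and Sod3 stand higher in all RGS tumors, Txnip falls from 722 to 834 CPM in vehicle to 45.1 to 56.6 CPM in RGS, and the groups overlap for Nfe2l2, Keap1 and Gclc.

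Gss and Gsr, which make and recycle glutathione, rose. Gss, glutathione synthetase, which completes the tripeptide, stood at 41.2, 51.4 and 42.5 CPM in vehicle and 93.4, 96.3 and 112 CPM in RGS (log2 fold change 1.16, SE 0.17, adjusted p = 3.96e-05). Gsr, glutathione reductase, which returns oxidised glutathione to its reduced form with NADPH, stood at 86.03, 73.7 and 77.9 CPM in vehicle and 202, 175 and 183 CPM in RGS (log2 fold change 1.24, SE 0.15, adjusted p = 6.47e-06). In both genes the lowest RGS tumor was well above the highest vehicle tumor. Gss shares 6.7% of its exon bases with Acss2 on the other strand.

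All 4 pentose phosphate enzymes among the members rose. Their summed level went from 1092 to 1244 CPM in vehicle to 2097 to 2342 CPM in RGS, a ratio of 1.91. G6pdx, glucose-6-phosphate dehydrogenase, the entry step that makes NADPH, stood at 120.2, 99.3 and 93.7 CPM in vehicle and 276, 252 and 271 CPM in RGS (log2 fold change 1.35, SE 0.16, adjusted p = 2.8e-06). Pgd, the second NADPH-making step, stood at 243, 219.6 and 193 CPM in vehicle and 554, 559 and 625 CPM in RGS (log2 fold change 1.41, SE 0.15, adjusted p = 1.4e-06). The non-oxidative enzymes among the members had smaller fold changes. Tkt, transketolase, rose by 0.82 (SE 0.16, adjusted p = 0.000524) and Taldo1, transaldolase, by 0.64 (SE 0.14, adjusted p = 0.00206) on the log2 scale, from 507, 557 and 506 CPM to 761, 852 and 841 CPM in the latter. The difference between these oxidative and non-oxidative enzymes was not tested. Rpe, a non-oxidative enzyme outside the member list, was lower in RGS (log2 fold change -1.17, SE 0.21, adjusted p = 0.000259). Pgls and Rpia, other enzymes of the pathway outside that list, were tested and not called. G6pdx shares 13.6% of its exon bases with Ikbkg on the other strand.

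Txnrd1, the cytosolic thioredoxin reductase, is given above with the classical targets. Of the other tested thioredoxin system members (Txn1, Txn2 and Txnip), only Txnip passed. Txnip (chr3:96557957-96561883) encodes an arrestin-domain protein that binds and inhibits thioredoxin and limits glucose uptake. It stood at 722, 834 and 829 CPM in vehicle and 45.1, 56.6 and 50.6 CPM in RGS, so that every RGS tumor was more than an order of magnitude below every vehicle tumor (log2 fold change -3.97, SE 0.17, adjusted p = 5.89e-12). Its antisense neighbor Gm15441, which covers 19.4% of its exon bases, had 0 to 35 counts per library. The thioredoxins did not pass. Txn1, the cytosolic form, stood at 143, 198 and 281 CPM in vehicle and 214, 245 and 322 CPM in RGS (adjusted p = 0.245), and Txn2, the mitochondrial form, had a log2 fold change of 0.19 (adjusted p = 0.398). Txn1 passed without vehicle replicate 9 (log2 fold change 0.62, adjusted p = 0.0125).

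Peroxiredoxins, the thiol peroxidases that thioredoxin keeps reduced, moved in both directions. Prdx1 (chr4:116685544-116700822), a cytosolic peroxiredoxin, stood at 559, 899 and 1102 CPM in vehicle and 2353, 2437 and 2779.6 CPM in RGS (log2 fold change 1.56, SE 0.20, adjusted p = 8.16e-06). Prdx5, found in mitochondria, peroxisomes and cytosol, stood at 152, 237 and 289 CPM in vehicle and 439, 524 and 671 CPM in RGS (log2 fold change 1.27, SE 0.21, adjusted p = 0.000126). Both had non-overlapping groups. Prdx4, the peroxiredoxin of the endoplasmic reticulum, was lower, with 73.05, 111 and 119.8 CPM in vehicle and 59.8, 56.7 and 55.1 CPM in RGS (log2 fold change -0.82, SE 0.19, adjusted p = 0.00224). The mitochondrial Prdx3 (log2 fold change -0.38, SE 0.18, adjusted p = 0.109) and the cytosolic Prdx2 (log2 fold change -0.47, SE 0.22, adjusted p = 0.115) were not called, and neither was Prdx6 (log2 fold change 0.15, SE 0.14, adjusted p = 0.441), which uses glutathione in place of thioredoxin. Prdx5 shares 19.1% of its exon bases with Trmt112 on the other strand.

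The levels of Prdx1, Prdx5 and other members ran in the same order over the vehicle tumors as the share of ribosomal protein genes. Of the 39 tested members, 17 (43.6%) were lowest in vehicle replicate 7 and highest in replicate 9, against 23.2% of all tested genes, and 9 (23.1%) had the reverse order, against 26.3%. Across the 15355 genes the ratio of vehicle replicate 9 to 7 had a Spearman correlation of -0.336 with gene length, from counts of libraries that differ in depth and share their gene lengths. That of RGS over vehicle was 0.0576. With the trend on gene length removed from each library, an alternative chosen after seeing the data, 22 members were higher and 3 lower. Prdx1 (log2 fold change 1.67), Prdx5 (1.43) and Txnip (-3.88) passed there too.

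Superoxide dismutases turn superoxide into hydrogen peroxide, which catalase breaks down. Sod3, the secreted form, stood at 3.48, 3.99 and 3.27 CPM in vehicle and 16.7, 19.9 and 15.97 CPM in RGS, a low level with a 4.88-fold difference and no overlap (log2 fold change 2.29, SE 0.31, adjusted p = 1.62e-05). Sod1, the cytosolic copper-zinc form, stood at 80.6, 92.3 and 109 CPM in vehicle and 168, 188 and 259 CPM in RGS (log2 fold change 1.12, SE 0.18, adjusted p = 0.000111), with the highest value in RGS replicate 12. Sod2, the mitochondrial manganese form, stood at 54.5, 51.99 and 51.6 CPM in vehicle and 57.2, 79.3 and 76.8 CPM in RGS (log2 fold change 0.43, SE 0.18, adjusted p = 0.0675). Its groups did not overlap, but 1 RGS tumor lay close to the vehicle tumors, and 16.16% of its 75-base windows occur in other genes. It passed without RGS replicate 10 (adjusted p = 0.0308). Cat, catalase, stood at 208, 194 and 165 CPM in vehicle and 246, 234 and 215 CPM in RGS, without overlap and without passing the test (adjusted p = 0.15), although it did without vehicle replicate 7 (adjusted p = 0.0397).

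Glutathione S-transferases attach glutathione to electrophiles. Gsta4 (chr9:78182774-78209349), which acts on the lipid peroxidation product 4-hydroxynonenal, stood at 12.9, 16.8 and 15.6 CPM in vehicle and 109, 139 and 147 CPM in RGS (log2 fold change 3.12, SE 0.19, adjusted p = 9.97e-10). This 8.72-fold difference was the largest rise among the tested members. Gsto1, the omega-class enzyme, stood at 526, 563 and 579 CPM in vehicle and 756, 861 and 991 CPM in RGS (log2 fold change 0.64, SE 0.15, adjusted p = 0.00301). The membrane-bound Mgst3 was lower, with 47.5, 75.7 and 117 CPM in vehicle and 25.1, 25.2 and 30.4 CPM in RGS (log2 fold change -1.57, SE 0.25, adjusted p = 9.24e-05), and its vehicle tumors spread widely. Gstm2 was lower as well, with 24.6, 24.9 and 29.9 CPM in vehicle and 12.6, 19.4 and 14.6 CPM in RGS (log2 fold change -0.77, SE 0.24, adjusted p = 0.0176), a call lost without vehicle replicate 8 or 9 or RGS replicate 10 (adjusted p = 0.0504, 0.0757 and 0.0704). Gstm1, Gstm5 and Mgst1 had log2 fold changes of 0.30, 0.19 and 0.46 and were not called. Gstm1 passed without vehicle replicate 7 (adjusted p = 0.0292), and 11.65% of the 75-base windows of Gstm1 occur in other genes.

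Neither of the tested glutathione peroxidases passed. Gpx1, the main cytosolic form, stood at 89.8, 169 and 188 CPM in vehicle and 110.3, 134 and 127 CPM in RGS (adjusted p = 0.364), and Gpx8, of the endoplasmic reticulum, at 122, 166 and 205 and 137, 117 and 157 CPM (adjusted p = 0.303). The metallothioneins, small proteins that bind zinc and copper, did not pass either. Mt1 stood at 37.96, 43.9 and 43.9 CPM in vehicle and 47.1, 43.02 and 73.97 CPM in RGS, and Mt2 at 3.00, 4.70 and 5.76 and 5.54, 6.55 and 13.8 CPM. In both genes RGS replicate 12 was above the other tumors, and 73.5% of the Mt2 exon bases overlap the antisense gene Gm45774, which had 0 to 27 counts per library.

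The remaining members were not tested. Txnrd2, the mitochondrial thioredoxin reductase, and Gpx7 were listed at 0 in all 6 libraries. Gstp1 had 1 count in vehicle replicate 8 and was listed at 0 in the others. It shares 29.18% of its 75-base windows with other genes, and its neighbor Coro1b was listed at 0 too, while Ndufv1 next to it had 13212 counts in all. Gpx3, the secreted plasma form, had 0, 0 and 0 counts in vehicle and 30, 4 and 2 counts in RGS, most of them in 1 tumor. The cause of these zeros was not tested.

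Per kilobase of the gene length listed with the counts, the most abundant members in vehicle were Gsto1 (283 ± 13.9 CPM per kilobase, SD, n = 3), Prdx1 (280.5 ± 90.1) and Txnip (255 ± 20.2), followed by Taldo1 (241 ± 13.5). That length is given per gene and not per transcript, so the order need not be that of transcript abundance. Neighbors in this order differed by less than the larger of their SDs. In RGS, Prdx1 led at 829 ± 74.3 CPM per kilobase and Gsto1 came next at 442 ± 59.8, with Nqo1 at 390.1 ± 23.9 within its SD, whereas Txnip was at 16.3 ± 1.84. Srxn1 went from 65.8 ± 5.32 to 269 ± 8.58, close to Prdx5 at 255 ± 54.7. Sod3 was the least abundant tested member in both groups, at 0.958 ± 0.0994 and 4.69 ± 0.557.

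**Figure D3:**
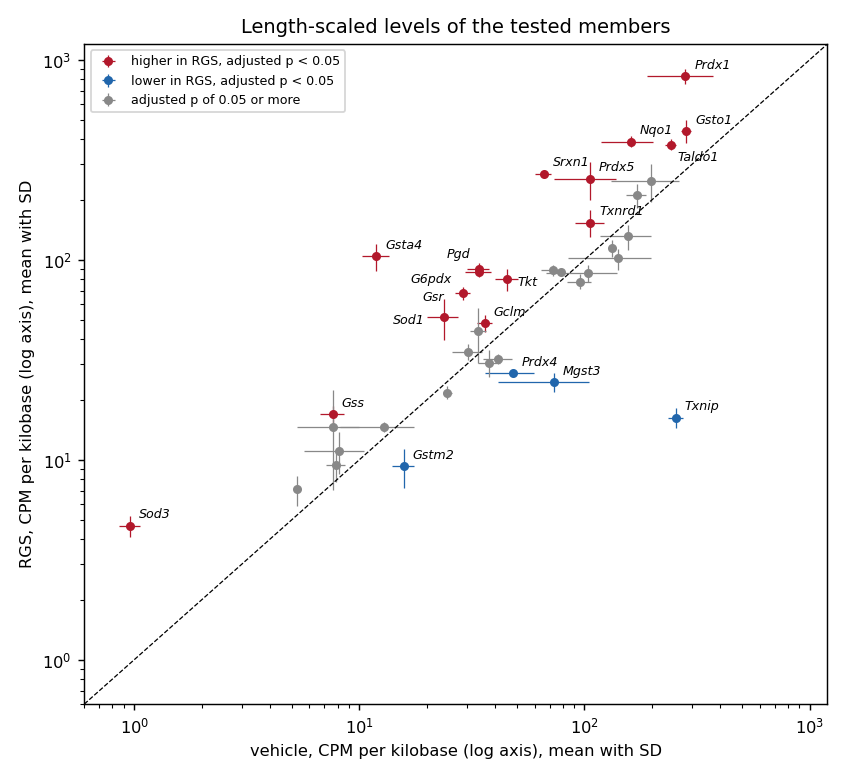
Mean level of the 39 tested members in vehicle (x axis) and RGS tumors (y axis), in CPM per kilobase on log axes, with SD as bars (3 tumors each) and a dashed line of equality. Prdx1 is highest in RGS, Srxn1 and Gsta4 lie far above the line, and Txnip lies far below it.

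Other genes of the redox network, in 7 lists of 141 genes, gave a more even picture. Of these, 137 were in the table, 120 were tested, 25 were higher in RGS and 24 were lower, against 16.3% and 16.5% of all tested genes. Their median log2 fold change was -0.07, and the same with genes at 0 in RGS placed at their bound.

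Among 13 other regulators and partners of NRF2, 4 rose and none fell. They were Syvn1, a ubiquitin ligase of the endoplasmic reticulum (55.1, 46.1 and 38.7 CPM in vehicle, 102, 125 and 126 CPM in RGS, adjusted p = 1.41e-05), Mafg, a small MAF partner (log2 fold change 0.71, adjusted p = 0.00158), Bach1, a repressor at antioxidant response elements (0.58, adjusted p = 0.0206), and Cul3, the scaffold of the ligase that KEAP1 serves (0.52, adjusted p = 0.0156). Among 28 other NRF2 targets, 10 rose and 4 fell. The aldo-keto reductase Akr1c18 stood at 157, 205 and 192 CPM in vehicle and 754, 865 and 988 CPM in RGS (log2 fold change 2.23, SE 0.17, adjusted p = 1.13e-08), and Osgin1 at 14.2, 15.8 and 15.6 and 62.3, 73.9 and 78.4 CPM (log2 fold change 2.24, SE 0.19, adjusted p = 5.81e-08). Akr1c13 was low, with 3, 35 and 50 counts in vehicle and 72, 86 and 95 counts in RGS (adjusted p = 0.0373). The lower ones were Aldh1a1, a retinal dehydrogenase (log2 fold change -1.25), Ugdh (-0.65), Nqo2 (-0.63) and Blvra (-1.11, with overlapping groups). Slc7a11, the cystine importer that feeds glutathione synthesis, was among the 10 and stood at 293, 217 and 180.1 CPM in vehicle and 537, 449.7 and 408 CPM in RGS (log2 fold change 1.01, SE 0.18, adjusted p = 0.000269). It was named for this role after its values were seen.

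Of 23 other glutathione enzymes, 6 rose and 5 fell. Gsta2 had 0, 2 and 0 counts in vehicle and 118, 44 and 107 in RGS, a ratio of 229 with a 95% interval of 62.8 to 1900 that covers counting error only. Gsta1 had 2, 3 and 0 and 100, 18 and 99 counts, a ratio of 73.9 (31.2 to 230), and shares the alpha class with Gsta4. Gsta1 and Gsta2 are near-identical copies, so the split of reads between them is uncertain. Ggct, which cleaves gamma-glutamyl peptides, rose (log2 fold change 1.59, SE 0.28, adjusted p = 0.000219). Gpx4, the peroxidase that protects membrane lipids, fell from 338, 637 and 876 CPM to 232, 281 and 298 CPM (log2 fold change -1.19, SE 0.24, adjusted p = 0.000759), and Chac1, which degrades glutathione, from 267, 255 and 223 CPM to 63.9, 78.2 and 90.3 CPM (log2 fold change -1.68, SE 0.17, adjusted p = 4.97e-07). Gstk1 had 81, 67 and 47 counts in vehicle and 1, 0 and 7 in RGS, a ratio of vehicle to RGS of 14.3 (7.13 to 33.6). Glrx3 (-1.14) and Gstz1 (-0.97), outside the naming rule, were the remaining lower ones.

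Of 20 thioredoxin fold and methionine sulfoxide reductase genes, 2 rose and 6 fell. The 2 were Txndc11 (0.82, adjusted p = 0.00367) and Txndc5 (0.78, adjusted p = 0.000706), both of the endoplasmic reticulum. Arrdc3, an arrestin-domain relative of Txnip, fell from 98.3, 118 and 132 CPM to 35.03, 36.8 and 25.02 CPM (log2 fold change -1.85, SE 0.19, adjusted p = 7.38e-07). Arrdc4, another such relative, had 13, 10 and 30 counts in vehicle and none in RGS, at least 10.4-fold lower against a floor of 3 counts over the group. Txndc12 (-1.27) and Sesn1 (-0.80) also fell.

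Of 17 other NADPH sources, 1 rose and 5 fell. Me2, a mitochondrial malic enzyme, rose (log2 fold change 0.62, SE 0.19, adjusted p = 0.0156). Me3, another mitochondrial malic enzyme, had 46, 45 and 37 counts in vehicle and none in RGS, at least 25.1-fold lower. Aldh1l2, the mitochondrial folate dehydrogenase, fell (log2 fold change -1.72, SE 0.22, adjusted p = 1.03e-05), as did Rpe of the non-oxidative pentose phosphate pathway (log2 fold change -1.17, SE 0.21, adjusted p = 0.000259). Mthfd1 (-0.70) and Mthfd2 (-1.07), enzymes of folate metabolism outside the naming rule, also fell. Of 13 oxidant producers, 2 rose and 4 fell. Nox4, a hydrogen peroxide-forming oxidase, rose (log2 fold change 0.88, SE 0.22, adjusted p = 0.00446), while Xdh (log2 fold change -1.95, SE 0.25, adjusted p = 8.43e-06) and Maoa (log2 fold change -0.68, SE 0.15, adjusted p = 0.00239) fell and Maob had 33, 24 and 97 counts in vehicle and none in RGS, at least 30.2-fold lower. Outside the naming rule, Nos2 (0, 0 and 2 counts in vehicle, 0, 69 and 20 in RGS) was the other higher gene and Cyba (-0.78) the other lower one, both with overlapping groups. None of the 6 tested genes of the metal response list passed.

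**Figure D4:**
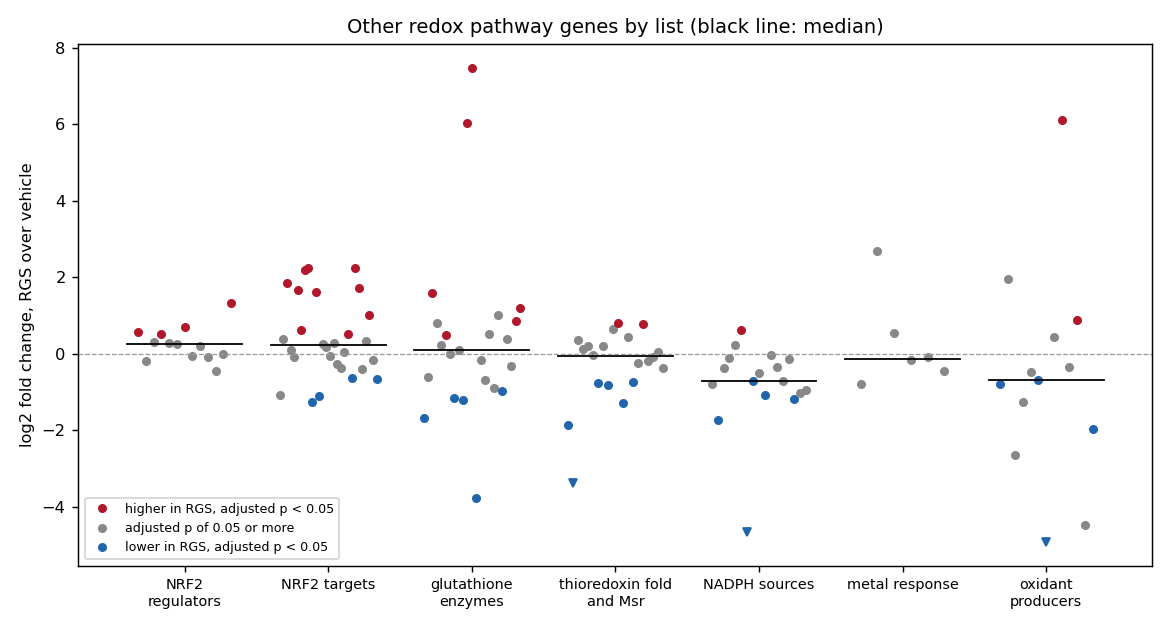
Fitted log2 fold change of RGS over vehicle for the 120 tested genes of the 7 other redox lists, with color for the call, black lines for list medians and triangles for 3 genes at 0 in RGS, drawn at their bound. The NRF2 target list holds 10 higher and 4 lower genes, and the NADPH list 1 higher and 5 lower.

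The promoters were searched for the core of the antioxidant response element, TGACNNNGC, on both strands. Promoters of 37 members were taken from RefSeq (GRCm38.p6), as the 250 bases before and 50 after the annotated start. No entry was matched for Gclc, Gsr, Gsta4, Hmox1, Prdx6 and Sod3. The core was present in 12 of the 37 (32.4%), against 14.0% of 27025 genes. It was found in 7 of 13 higher members (G6pdx, Gclm, Pgd, Prdx1, Sod1, Srxn1 and Txnrd1), none of 4 lower ones, 5 of 16 that were not called (Gstm5, Me1, Mgst1, Mt2 and Nfe2l2) and none of 4 untested ones. Of these, Txnrd1, Pgd, Me1 and Mgst1 also had at least 1 promoter without the core. The higher members with a promoter but without the core were Gss, Gsto1, Nqo1, Prdx5, Taldo1 and Tkt. Sequence outside these promoters was not searched. The member list includes genes chosen as NRF2 targets, so its share beside that of all genes is a description only. A match is a string of letters, and binding was not measured. In 3 of the 12 matches the core overlaps the AP-1 motif TGANTCA.

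The matches below are a selection that sets higher members beside Me1 and Nfe2l2, which did not pass. Those of Pgd, which was higher, and of Gstm5, Mgst1 and Mt2, which were not called, are left out. Each has up to 10 bases on each side and the core in capitals, read 5′ to 3′ on the strand of the gene. Position is counted from the start base, as 0, of the promoter that holds the match.
Srxn1, higher, at 28, chr2:152105542-152105570 (+): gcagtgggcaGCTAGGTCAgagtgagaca
Prdx1, higher, at -133, chr4:116685456-116685484 (+): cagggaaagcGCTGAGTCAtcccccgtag
G6pdx, higher, at -57, chrX:74428919-74428947 (-): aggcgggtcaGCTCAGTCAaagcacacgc
Gclm, higher, at -134, chr3:122245413-122245441 (+): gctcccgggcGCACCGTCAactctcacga
Txnrd1, higher, at -92, chr10:82859104-82859132 (+): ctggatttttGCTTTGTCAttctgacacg
Sod1, higher, at -56, chr16:90220696-90220724 (+): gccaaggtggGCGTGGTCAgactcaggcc
Me1, not called, at -6, chr9:86695902-86695930 (-): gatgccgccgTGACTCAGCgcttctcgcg
Nfe2l2, not called, at -240, chr2:75704885-75704913 (-): tcagcccaccTGACTCCGCcatgccccgg
The cores of Srxn1, Prdx1, G6pdx, Gclm, Txnrd1 and Sod1 lie on the opposite strand and so read from the right.

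A variant core with G as the fourth letter, TGAGNNNGC, was searched after the sequences had been seen. It was present in 6 of 37 members (16.2%), against 19.8% of genes, and 1 of its sites in Srxn1 overlaps the AP-1 motif, as the second line shows.
Srxn1, variant, at -158, chr2:152105356-152105384 (+): tctactgagaGCCGACTCAtcctctctgg
Srxn1, variant, at -45, chr2:152105469-152105497 (+): aaattcacccTGAGTCAGCggccgggcgc
With either core, 15 of 37 members (40.5%) and 30.8% of genes had a match.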

How the data were processed

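RNA from YUMM3.3 tumors of vehicle and RGS mice (3 tumors each) was sequenced as paired reads of 150 bases. Per the labels, the authors used cutadapt 1.18, FastQC 0.11.7, STAR 2.7.1a and featureCounts 1.6.4 with mm10, and deposited raw read counts per gene. The strand setting, the annotation and the handling of multi-mapped reads are not given in the sources used here. Of 40166 genes, 17378 had no count. Gene positions equal those of GRCm38 for each of the 38971 genes also in GENCODE M21. Columns were assigned to tumors by sample title. Counts were scaled by TMM and tested with edgeR 4.0.16 (R 4.3.3), keeping genes with a median count of at least 5 in 1 or both groups. The study names DESeq2, which was run as an alternative (1.42.0), with limma 3.58.1 for voom. The SE of a log2 fold change came from its size over the square root of the F statistic. The totals of 13837932 to 32555494 counts put 3 counts at 0.0856 to 0.226 CPM. Spearman correlations were 0.970 to 0.983 within groups and 0.923 to 0.945 between them. Within-group differences exceeded sampling noise. Members and gene lists were chosen with earlier results of these data known. Genes given in full were 8 preset members and members past the test with a log2 fold change of at least 1 in size, and from each list up to 3 genes per direction with the largest change, without overlap and at 1 CPM or more. Intervals of count ratios, and floors, cover counting error only. Other scalings, filters, tests and thresholds, thinning to the smallest library, dropping ribosomal protein and mitochondrial genes, removing the length trend and leaving out each tumor were tried. The code was tested on simulated data. Gstp2, Gstp3, Slc30a1 and Noxa1 were not analysed here.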

Additional observations from a re-analysis of the deposited data

How the results depend on the processing

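Of the 39 tested members, 23 kept their call and direction in every alternative run, 3 lost a call in at least 1 (Txnrd1, Gclm and Gstm2), 12 gained one and 3 turned direction. Members lower in RGS, 4 in the report, were 7 under scaling by library size alone, 7 with limma voom and 2 with a log2 fold change of at least 1 in size. That threshold also left 14 other pathway genes higher and 15 lower, and 1168 and 1450 of all genes. Scaling by library size alone moved the median of all genes from -0.05 to -0.19 and that of the members to 0.24, and took the higher share of all calls from 49.7% to 37.2%. With the gene length trend removed, the members' median was 0.52 and that of all genes 0.06. Gpx1 (0.0233) and Gpx8 (0.121) then turned direction, as Gstm5 did without vehicle replicate 7 (-0.0804 to 0.403 over the tumors left out). The cause was not tested. The number of marker lists without overlap, 5 in the report, was 3 under library size alone and 3 under upper quartile factors.

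Leaving out 1 tumor at a time gave 15 to 18 members higher and 3 to 8 lower, a members' median of 0.31 to 0.45, 19 to 28 other pathway genes higher and 19 to 25 lower, 1776 to 2698 of all genes higher and 1717 to 2551 lower, and 5 to 6 marker lists without overlap. Where a group was left with 2 tumors the spread was pooled over both groups.
No paired analysis was possible because the replicate numbers of the 2 groups differ. Vehicle libraries were deeper than RGS libraries, so low genes are less precise in RGS.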
